A study of Mus musculus with 34 samples.

Results

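The effect of tofacitinib common to 4 mouse genotypes was examined in the hippocampus, as the mean difference between the 4 tofacitinib groups and the 4 sham groups. The comparison used all 34 libraries of the series, 19 from animals given tofacitinib and 15 from animals given sham gavage, and each genotype had the same weight. Animals were 6 months old and received either 15 mg/kg tofacitinib or the vehicle, 0.5% methylcellulose, by gavage once a day for a month. Wild-type mice (WT, C57BL/6J) contributed 5 sham and 5 tofacitinib animals. Dp16 mice, which carry a duplicated stretch of mouse chromosome 16 that matches part of human chromosome 21 and model Down syndrome, contributed 3 and 5. 5xFAD mice, in which the neuronal Thy1 promoter drives human transgenes with familial Alzheimer mutations, contributed 4 and 5. Mice with both changes (5xFAD-Dp16) contributed 3 and 4. Females were 16 and males 18 of the 34 animals, and all 8 groups held both sexes. The design text names 1 more tofacitinib 5xFAD and 1 more sham 5xFAD-Dp16 animal than the libraries analysed here.

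Cytokines and interferons signal through receptors that carry Janus kinases (Jak1, Jak2, Jak3 and Tyk2). The kinases phosphorylate STAT transcription factors, which enter the nucleus and switch on target genes, among them the interferon-stimulated genes and the Socs inhibitors that feed back on the kinases. Tofacitinib binds the kinases and blocks their activity, and in the brain the interferon-stimulated genes are made mainly by microglia, astrocytes and endothelial cells.

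The libraries held 14.9 to 21.1 M counts (median 17.8 M), and 17518 genes were tested. In 3 libraries the neuronal markers of the hippocampus were low (WT tofacitinib 3, 5xFAD tofacitinib 2 and 5xFAD-Dp16 sham 4), with a mean of 3.72 to 4.04 log2 CPM against 5.14 to 5.68 in the other 31. CPM are counts per M counts of the library. Medians of the lists described below are therefore also given without these 3 libraries. The tissue is bulk hippocampus, so fewer cells of a type and less RNA per cell cannot be told apart.

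No gene passed the threshold for the mean effect of tofacitinib. The smallest adjusted p was 0.618 (edgeR's quasi-likelihood test, Benjamini-Hochberg over all genes, threshold 0.05), so the share called was 0% of the genes tested. An unadjusted p under 0.05 was reached by 1354 genes (7.73%), 840 higher (4.8%) and 514 lower (2.93%) with tofacitinib. DESeq2 called 1 gene, the nicotinic receptor subunit Chrna6, as higher with tofacitinib, and limma-voom called 0. Chrna6 reached 23.2 CPM in 5xFAD-Dp16 sham 4 and at most 2.87 CPM in the other libraries. In 5xFAD animals it was at 0 CPM in all sham and at 0.10 to 1.62 CPM in tofacitinib libraries. In the other genotypes its sham and tofacitinib ranges overlapped. Without a filter on low counts edgeR called 91, of which 13 were striatum marker genes. The median standard error of a log2 fold change was 0.09. The 95% interval lay within 1.5-fold either way for 13286 genes (75.8%) and within 2-fold for 15628 (89.2%). In no gene did the 19 tofacitinib and the 15 sham libraries fall into ranges that do not overlap (0%). Because no gene passed, the log2 fold changes below (positive means higher with tofacitinib) are values with their intervals and not called changes.

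The kinases that tofacitinib binds were present in all groups. On the length-corrected RPKM scale Jak1 had the highest level of the 4 kinases, with a median of 35.5 in sham and 32.5 in tofacitinib libraries. Jak2 followed at 6.40 and 6.42, then Tyk2 at 1.68 and 1.55, and Jak3, the kinase that serves lymphocyte receptors with the common gamma chain, at 1.20 and 1.10 RPKM. The log2 fold changes of Jak1 (-0.06, 95% interval -0.17 to 0.05) and Jak2 (0.01, -0.10 to 0.11) had the narrowest intervals of the 4. Jak3 stood at -0.15 (-0.36 to 0.05). Tyk2, which serves the type I interferon and interleukin-12 receptors, stood at -0.19 (SE 0.08, interval -0.35 to -0.02, adjusted p = 0.625). In WT animals Tyk2 was at 9.36, 9.61, 9.24, 6.84 and 6.76 CPM with sham and at 8.74, 8.51, 6.93, 9.51 and 10.4 CPM with tofacitinib. In Dp16 animals it was at 11.9, 13.6 and 9.04 CPM with sham and at 9.49, 7.86, 9.22, 7.47 and 8.33 CPM with tofacitinib. Sham and tofacitinib ranges of Tyk2 thus overlapped in both genotypes, with 2 of the 3 Dp16 sham animals above all Dp16 animals given tofacitinib.

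Of the genes the kinases act through, Stat2, a transducer of type I interferons, was at -0.13 (interval -0.28 to 0.01) and Stat3, the transducer of interleukin-6 family cytokines, at -0.12 (-0.23 to -0.002). Irf9, which joins Stat2 in the complex that binds interferon-stimulated genes, was at 0.06 (-0.13 to 0.24). Of the 12 kinases and STATs tested, 8 were below 0 against 48.6% of all genes, the median was -0.09 (all genes 0.00), and 2 (Tyk2 and Stat3) had an unadjusted p under 0.05. In WT animals the median was 0.05, with 4 of 12 below 0. Without the 3 low libraries the median was -0.07 with 1 such gene, and without 5xFAD sham 4 it was -0.04. With the trend with gene length described below removed, it was -0.05 with 0 such genes.

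**Figure D1:**
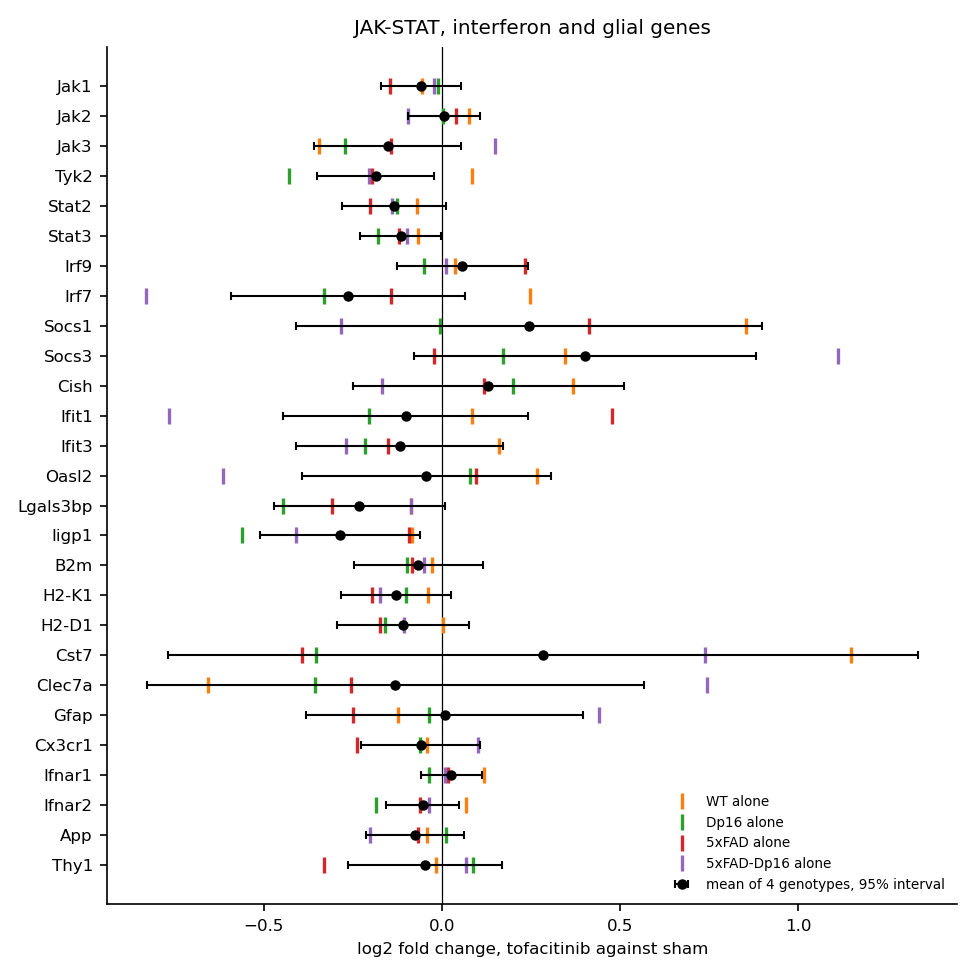
Log2 fold change of tofacitinib against sham (x axis) for 27 JAK-STAT, interferon, glial and transgene-linked genes (y axis); black points are the mean over 4 genotypes with the 95% interval, coloured ticks the effect in each genotype. The intervals of Tyk2, Stat3 and Iigp1 end below 0, those of the other 24 genes include 0, and none of the 27 has an adjusted p under 0.618.

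Of the genes that JAK-STAT signalling induces as its own brakes, Socs3 and Socs1 gave wide intervals. Socs3, an inhibitor of receptors of the interleukin-6 family, was at 0.40 (interval -0.08 to 0.88), Socs1, an inhibitor of interferon receptors, at 0.24 (-0.41 to 0.90) and Cish, a target of Stat5, at 0.13 (-0.25 to 0.51). Their levels were low, with a sham median of 1.47, 0.706 and 4.73 CPM. Of the 25 feedback and target genes tested, 14 were above 0 and 11 below, with a median of 0.00. The 4 with an unadjusted p under 0.05 (16% of the list) were all lower, namely the STAT inhibitors Pias3 (-0.16) and Pias1 (-0.10) and the receptor subunits Lifr (-0.13) and Il6st (-0.12). Of all genes 7.73% had such a p and 2.93% were lower with it. Without the 3 low libraries 2 members had such a p, both lower, at a median of -0.01, and with the trend with gene length described below removed 1 did.

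Receptors that couple to Janus kinases were close to 0. The type I interferon receptor subunits Ifnar1 (0.03, interval -0.06 to 0.11) and Ifnar2 (-0.05, -0.16 to 0.05) are among the genes duplicated in Dp16 and had narrow intervals around 0. Of 29 receptor genes tested 11 were above 0 and 18 below, with a median of -0.03. The growth hormone receptor Ghr (0.24) was the one higher, and Lifr and Il6st, which this list shares with the one before, were the 2 lower genes at an unadjusted p under 0.05. The median was -0.01 without the 3 low libraries, with 1 such gene higher and 0 lower.

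Type I interferon-stimulated genes tended to values below 0, unevenly over genotypes and without a single member past an unadjusted p of 0.05. Of the 55 tested (57 listed), 42 were below 0 against 48.6% of all genes, and the median was -0.08 (-0.05 without the 3 low libraries, with 22 of 55 above 0). For 36 of the 55 the 95% interval lay within 1.5-fold either way and for 49 within 2-fold. By genotype the median was 0.13 for WT, -0.14 for Dp16, -0.02 for 5xFAD and -0.28 for 5xFAD-Dp16 animals. Members below 0 numbered 16, 41, 28 and 46 of 55 in that order, where the shares of all genes were 48.3, 49.9, 48.2 and 50.2%. Without the 3 low libraries the medians were 0.05, -0.12, 0.05 and -0.14, with those of WT and 5xFAD-Dp16 closer to 0 than with all libraries. The 4 medians share no animals.

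The levels of single members show the same spread. Ifit3, an antiviral protein that binds foreign RNA together with its relatives, was at 7.73, 8.09, 7.48, 4.27 and 4.88 CPM in WT sham and at 6.49, 8.32, 8.98, 6.36 and 5.83 CPM in WT tofacitinib animals. In 5xFAD-Dp16 animals it was at 18.3, 26.3 and 26.4 CPM with sham and at 25.4, 18.4, 15.6 and 18.2 CPM with tofacitinib. Its sham and tofacitinib ranges overlapped in both genotypes, and its mean effect was -0.12 (interval -0.41 to 0.17). Ifit1, its neighbour, stood at 9.17, 10.9 and 9.82 CPM in 5xFAD-Dp16 sham and 5.52, 5.65, 4.23 and 7.31 CPM in 5xFAD-Dp16 tofacitinib animals, which did not overlap (in either direction 4.82% of all genes in that genotype did not). In 5xFAD animals it was at 4.13, 3.00, 3.00 and 2.77 CPM with sham and at 6.77, 2.90, 3.68, 6.73 and 2.84 CPM with tofacitinib, in overlapping ranges with the 2 highest values in animals given tofacitinib. The effect on Ifit1 was therefore -0.77 in 5xFAD-Dp16 and 0.48 in 5xFAD, with a mean over genotypes of -0.10 (-0.45 to 0.24). The difference between genotypes did not pass (unadjusted p = 0.0919, adjusted p = 0.9999). Oasl2, an antiviral ubiquitin-like protein, was at -0.04 (-0.39 to 0.31), and Irf7, the transcription factor that amplifies the response, at -0.26 (-0.59 to 0.06). Lgals3bp, a secreted glycoprotein induced by interferon, had the smallest p of the list (-0.23, SE 0.12, interval -0.47 to 0.01, adjusted p = 0.643).

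The promoters of some of these genes show the sequence that the complex of Stat2 and Irf9 recognises, the interferon-stimulated response element. Of 28 JAK-STAT, interferon, glial and transgene-linked genes, 25 had at least 1 promoter window in the RefSeq table (GRCm38.p6, 250 bases before to 50 after the start). In 5 of these genes at least 1 window held its core (GAAA, any 2 bases and again GAAA) on either strand. Of all 32851 windows 3.44% held it, which is a share of windows and not of genes, so the 2 values are not like for like. The stretches below, 5′ to 3′ on the gene's strand with the matches in capitals, are shown because the genes stand at successive steps of the pathway: a transducer, 2 antiviral targets and the light chain of MHC class I.
Stat2 (chr10:128270248-128270320, plus strand): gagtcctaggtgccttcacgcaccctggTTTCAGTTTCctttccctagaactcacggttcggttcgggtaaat
Ifit1 (chr19:34640750-34640848, plus strand): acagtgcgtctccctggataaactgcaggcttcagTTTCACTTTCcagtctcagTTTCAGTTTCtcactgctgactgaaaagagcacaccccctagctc
Ifit3 (chr19:34583338-34583451, plus strand): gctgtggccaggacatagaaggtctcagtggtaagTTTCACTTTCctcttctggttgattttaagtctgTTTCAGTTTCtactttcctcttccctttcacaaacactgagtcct
B2m (chr2:122147513-122147592, plus strand): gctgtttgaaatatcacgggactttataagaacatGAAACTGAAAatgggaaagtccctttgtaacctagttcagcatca
Ifit1 and Ifit3 each held 2 matches and Stat2 and B2m 1 each. The 4 genes had mean log2 fold changes of -0.13, -0.10, -0.12 and -0.07 in the order Stat2, Ifit1, Ifit3 and B2m. The fifth gene with a match, Socs1, whose promoter is not printed, was the one above 0, at 0.24. A comparison of all genes with and without the motif was not made, since only 12640 of the 17518 tested genes (72.2%) had a window.

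Genes of the interferon-gamma response and of MHC class I had a median of -0.07 over 38 tested (-0.04 without the 3 low libraries), with 23 below 0. At an unadjusted p under 0.05 were 4 lower and 2 higher members, and without the 3 low libraries 0 lower and 3 higher. With the trend with gene length removed there were 5 lower and 0 higher, at a list median of -0.07. The GTPase Iigp1, which disrupts the vacuoles of intracellular parasites, had the smallest p of the list (-0.29, SE 0.11, interval -0.51 to -0.06, adjusted p = 0.618). It stood at 3.61, 3.78 and 4.23 CPM in Dp16 sham and at 3.59, 1.85, 3.30, 2.71 and 1.71 CPM in Dp16 tofacitinib animals. In 5xFAD-Dp16 animals Iigp1 was at 4.69, 7.11 and 5.54 CPM with sham and at 4.25, 4.16, 4.18 and 4.54 CPM with tofacitinib. The sham and tofacitinib animals did not overlap in either of these genotypes, as was so for 3.93% of all genes in Dp16 and 4.82% in 5xFAD-Dp16 animals, though in Dp16 the gap was from 3.59 to 3.61 CPM. In WT animals it was at 2.54, 1.57, 1.87, 1.48 and 1.75 CPM with sham and at 2.00, 1.85, 1.17, 1.95 and 1.72 CPM with tofacitinib, and these overlapped. The 2 higher members were Psmb10 (0.18), a subunit of the immunoproteasome, and Psme1 (0.12), a proteasome activator. B2m (-0.07), H2-K1 (-0.13) and H2-D1 (-0.11), which form MHC class I molecules on the cell surface, had intervals that include 0. The 9 MHC class II genes had a median of -0.06, which was 0.10 without the 3 low libraries.

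**Figure D2:**
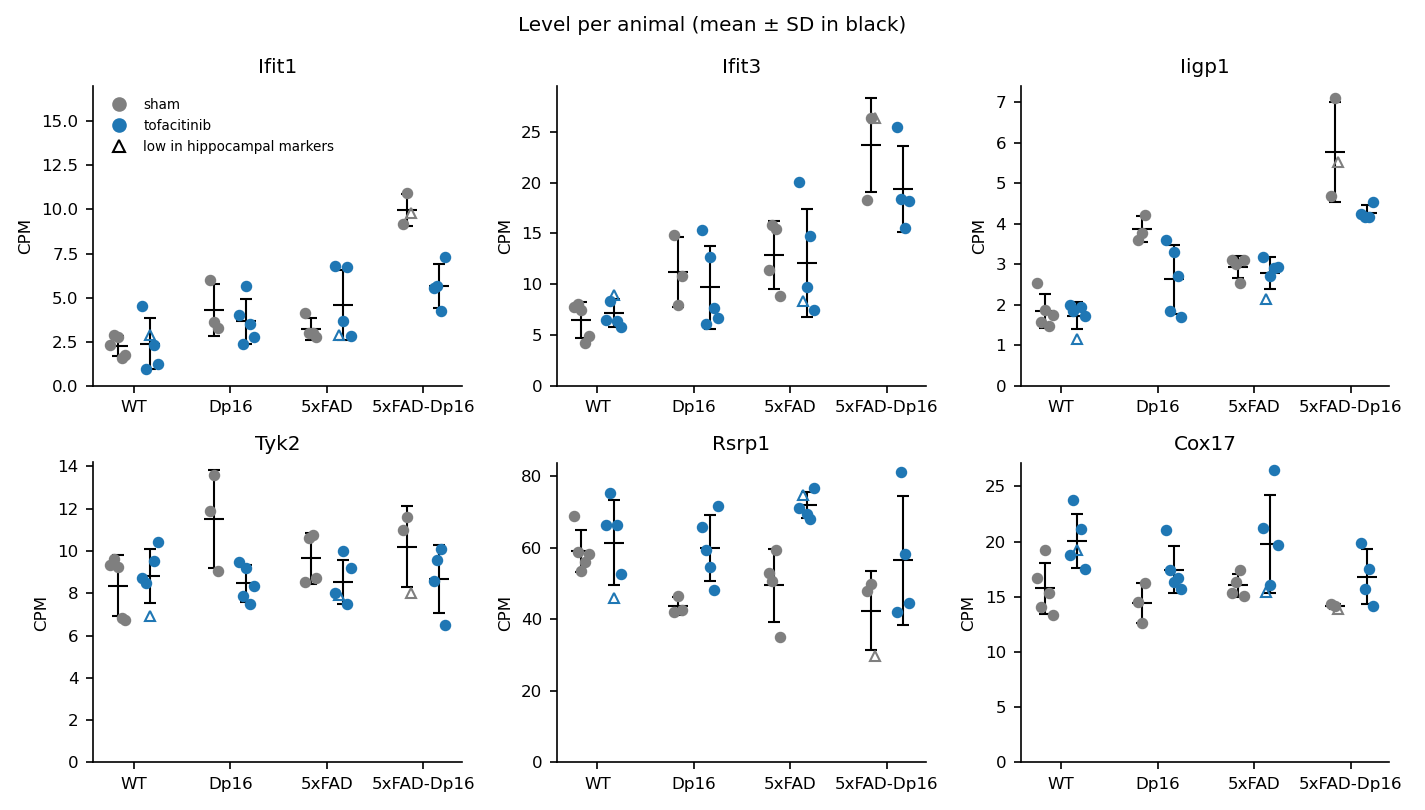
Level in CPM (y axis) of 6 genes in each animal by genotype (x axis), sham in grey and tofacitinib in blue; black bars are the mean ± SD and open triangles the 3 libraries low in hippocampal markers. Ifit1 in 5xFAD-Dp16, Iigp1 in Dp16 and 5xFAD-Dp16 and Rsrp1 in Dp16 and 5xFAD animals have sham and tofacitinib ranges that do not overlap, whereas Ifit3 and Tyk2 overlap in every genotype.

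Microglia and astrocytes, the glia that respond to plaques, gave medians near 0 in the mean over genotypes. Of 32 plaque-associated microglia genes 22 were above 0 (median 0.03, with or without the 3 low libraries). With the length trend removed the median was -0.01, with 14 of 32 above 0. With all libraries 1 member, the lipid carrier Apoe (0.11), had an unadjusted p under 0.05. Cst7 (0.28, interval -0.77 to 1.34) and the lectin receptor Clec7a (-0.13, -0.83 to 0.57) were not bounded within 2-fold. The list median was -0.11 in 5xFAD and 0.22 in 5xFAD-Dp16 animals, and 0.00 and 0.10 without the 3 low libraries. In 5xFAD animals Cst7 was at 24.1, 48.1, 40.2 and 4.47 CPM with sham and at 22.8, 6.77, 38.3, 36.6 and 6.59 CPM with tofacitinib. Each group held both low and high animals, and the ranges overlapped. Homeostatic microglia genes had a median of -0.03 (16 tested, -0.06 without the 3 low libraries), with the fractalkine receptor Cx3cr1 at -0.06 (-0.23 to 0.11) and the transcription factor Sall1, the only member at an unadjusted p under 0.05, at -0.16. Complement (-0.05, 15 tested) and reactive astrocyte genes (0.00, 32 tested) had 0 and 1 such members. Their medians were 0.03 and 0.09 without the 3 low libraries, with 22 of the 32 astrocyte genes above 0 in place of 14. The astrocyte filament Gfap was at 0.01 (-0.38 to 0.40). App (-0.07, -0.21 to 0.06) and Thy1 (-0.05, -0.26 to 0.17), to which reads of the transgenes may contribute, had intervals that include 0.

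Of other pathways, glucocorticoid-responsive genes had a median of 0.10 over 25 tested (0.08 without the 3 low libraries, 0.03 without 5xFAD-Dp16 tofacitinib 3). Its 4 members at an unadjusted p under 0.05 were all higher, namely the stress-induced mTOR inhibitor Ddit4 (0.22), the metallothioneins Mt1 (0.13) and Mt2 (0.19) and the NF-kB inhibitor Nfkbia (0.27). Of all genes 4.8% were higher at that level, and with the length trend removed 1 member was. Fkbp5, a receptor co-chaperone widely used as a glucocorticoid marker and named here after its value was seen, was at 0.00 (-0.26 to 0.26). Among 12 oligodendrocyte precursor genes the proteoglycan Cspg4 (-0.20), the receptor Gpr17 (-0.17) and the transcription factor Olig2 (-0.18) were lower and the sialidase Neu4 (0.21) higher at that level, which 7.73% of all genes reached in either direction. Leaving out the 3 low libraries gave 3 lower and 3 higher, and the list median was -0.02 in place of -0.08. Peripheral leukocyte genes were hardly detected: 8 of 21 passed the filter, at a median of -0.56 (-0.45 without the 3 low libraries and -0.08 without 5xFAD sham 1). At an unadjusted p under 0.05 the T cell receptor constant region Trbc2 (1.41) and the co-receptor Cd4 (1.36) were higher and Il2rb lower. Leaving out the 3 low libraries gave 0 higher and 2 lower. Il2rb, a subunit of the interleukin-2 and interleukin-15 receptors that signals through Jak1 and Jak3, had the smallest p of these (-1.44, interval -2.24 to -0.64, adjusted p = 0.618) and was named after its value was seen. Its medians were 0.34 CPM in sham and 0.11 CPM in tofacitinib libraries, which is a handful of reads per library, and its effect was 0.59 in WT and -3.05 in 5xFAD-Dp16 animals.

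**Figure D3:**
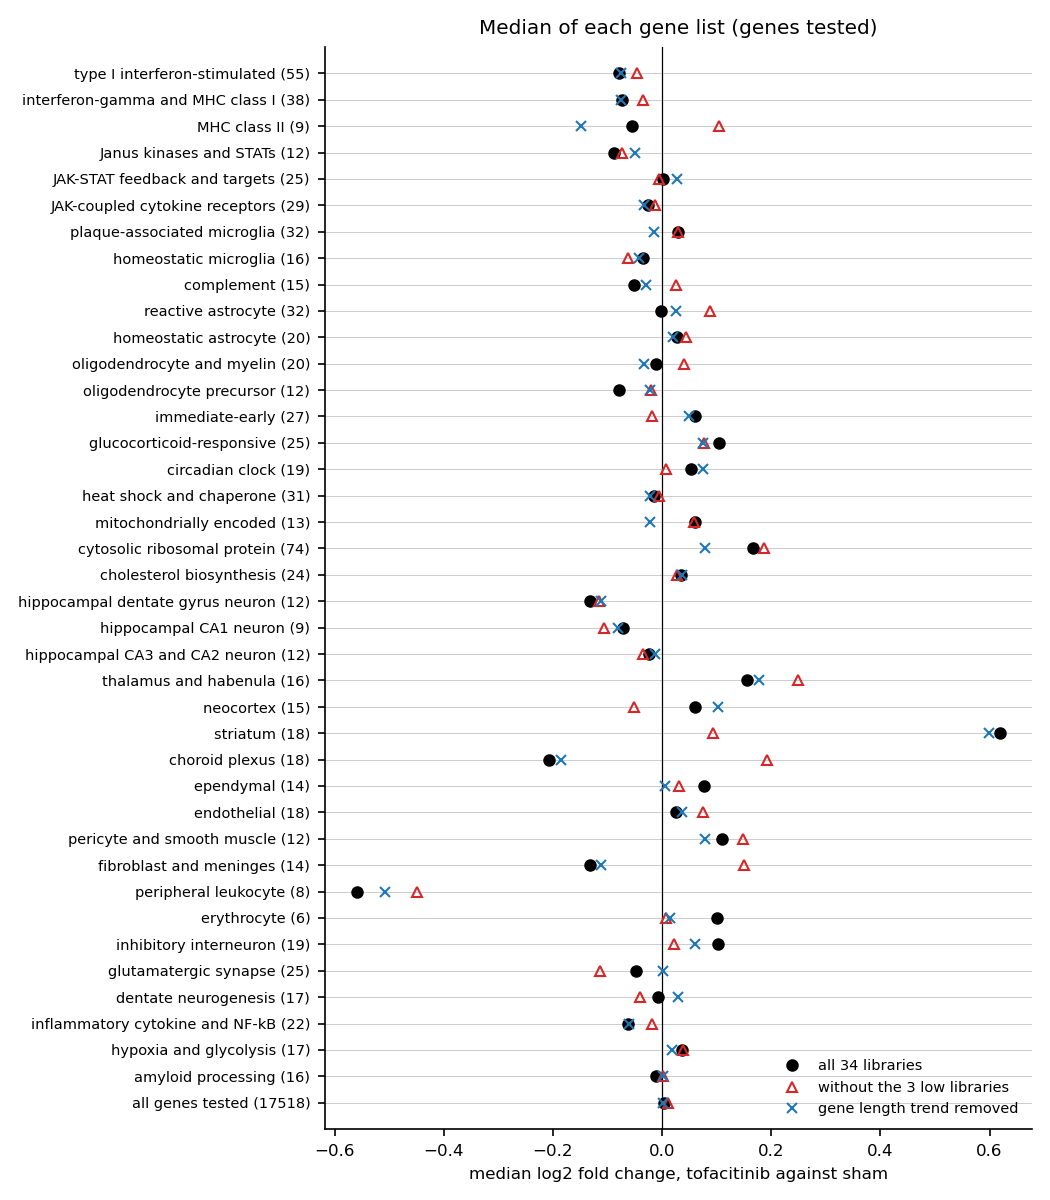
Median log2 fold change of tofacitinib against sham (x axis) of 39 gene lists and of all genes (y axis, genes tested in brackets); black points use all 34 libraries, red triangles leave out the 3 low libraries and blue crosses remove the trend with gene length. The striatum list moves from 0.62 to 0.09 without the 3 libraries, and the ribosomal protein list from 0.17 to 0.08 when the length trend is removed.

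The genes with the smallest p were not members of the interferon lists. Rsrp1 (chromosome 4, 134923592 to 134927671), a nuclear protein rich in arginine and serine, led those higher with tofacitinib. In WT animals it was at 68.8, 58.9, 53.5, 56.0 and 58.2 CPM with sham and at 66.3, 75.5, 45.9, 66.4 and 52.7 CPM with tofacitinib, in overlapping ranges. In Dp16 animals Rsrp1 was at 42.0, 46.5 and 42.7 CPM with sham and at 65.9, 59.3, 54.7, 48.2 and 71.8 CPM with tofacitinib. In 5xFAD animals it was at 52.9, 50.8, 59.3 and 35.2 CPM with sham and at 71.1, 74.8, 69.3, 67.9 and 76.9 CPM with tofacitinib. Neither the Dp16 nor the 5xFAD animals overlapped between treatments. That was so for 0.519% of all genes in WT, 3.93% in Dp16 and 1.52% in 5xFAD animals. In 5xFAD-Dp16 animals it was at 47.8, 49.8 and 29.6 CPM with sham and at 42.0, 81.3, 58.4 and 44.5 CPM with tofacitinib, which overlapped. The mean log2 fold change of Rsrp1 was 0.37 (SE 0.08, interval 0.20 to 0.54, adjusted p = 0.618), and 0.35 without the 3 low libraries.

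Among higher genes the next smallest p were those of Cox17 (0.29, interval 0.15 to 0.44), a copper chaperone of cytochrome c oxidase, Tsr3 (0.24, 0.11 to 0.37), which modifies ribosomal RNA, and Bcas2 (0.20, 0.10 to 0.29), a spliceosome subunit. Cox17 was at 14.4, 14.2 and 13.9 CPM in 5xFAD-Dp16 sham and at 19.9, 15.7, 17.5 and 14.2 CPM in 5xFAD-Dp16 tofacitinib animals, with overlapping ranges, and its effect was between 0.25 and 0.35 in each of the 4 genotypes. The 5 lower genes were the neuronal membrane protein Lrrn1 (-0.20, -0.31 to -0.10), the deubiquitinase Usp25 (-0.18, -0.28 to -0.09), which is among the genes duplicated in Dp16, the zinc finger protein Zfp267 (-0.20, -0.31 to -0.09), the chromatin regulator Asxl2 (-0.23, -0.36 to -0.10) and Ctns, the lysosomal cystine transporter (-0.26, -0.40 to -0.11). These 9 genes, Rsrp1 included, had an adjusted p of 0.618, and all 9 had the same direction in each of the 4 genotypes, which a choice by the p of their mean favours. Lrrn1 was at 103, 110 and 113 CPM in 5xFAD-Dp16 sham and at 77.5, 90.2, 81.2 and 93.3 CPM in 5xFAD-Dp16 tofacitinib animals, which did not overlap, as was so for 4.82% of all genes in that genotype.

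Cytosolic ribosomal protein genes, which encode the protein subunits of the ribosome, were slightly higher in every member tested. All 74 were above 0 (51.4% of all genes were), with a median of 0.17, and 62 (83.8%) had an unadjusted p under 0.05, all higher, where 4.8% of all genes did. None passed the adjusted threshold (smallest adjusted p 0.618). Members with the smallest p were Rpl10 (0.18), Rps27 (0.27), Rpl8 (0.14) and Rpl12 (0.26). The genotype medians were 0.11 (WT), 0.06 (Dp16), 0.18 (5xFAD) and 0.30 (5xFAD-Dp16), and without the 3 low libraries 71 of 74 had such a p (6.48% of all genes higher) at a median of 0.19. The mean level of the list ran from 7.39 to 7.98 log2 CPM (median 7.61) in sham and from 7.49 to 8.06 (median 7.73) in tofacitinib libraries, in overlapping ranges. Within 5xFAD-Dp16 animals the sham levels (7.39 to 7.56) lay below the tofacitinib levels (7.58 to 8.05), and in the other genotypes they overlapped.

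The ribosomal protein transcripts are short, with a median of 993 bases, and the difference between treatments varied with gene length over all genes. In the decile of genes with the shortest gene models (55 to 1101 bases) the median log2 fold change was 0.11, with 245 of 1752 genes higher and 8 lower at an unadjusted p under 0.05. In the decile with the longest (6961 bases and more) it was -0.08, with 9 higher and 194 lower. The shortest decile was above 0 in each genotype (WT 0.11, Dp16 0.05, 5xFAD 0.14 and 5xFAD-Dp16 0.17) and the longest below 0 in each (-0.05, -0.09, -0.05 and -0.11). An index per library, the median centred log2 CPM of the shortest decile minus that of the longest, ran from -0.34 to 0.36 (median -0.11) in sham and from -0.23 to 0.50 (median 0.04) in tofacitinib libraries, which overlap. Its mean was -0.01 ± 0.22 and 0.15 ± 0.21 in WT (SD, n = 5 and 5), -0.08 ± 0.13 and 0.07 ± 0.12 in Dp16 (n = 3 and 5), -0.11 ± 0.08 and 0.06 ± 0.26 in 5xFAD (n = 4 and 5) and -0.18 ± 0.14 and 0.09 ± 0.29 in 5xFAD-Dp16 animals (n = 3 and 4), sham first. With the length trend removed from each library, a setting added after seeing the data, 70 of the 74 ribosomal protein genes were above 0 (50.7% of all genes), the median was 0.08 and 22 had an unadjusted p under 0.05, all higher (2.81% of all genes higher). The number of such genes over the whole table was then 825 (4.71%) in place of 1354. By genotype the ribosomal protein medians were then 0.04 (WT), 0.02 (Dp16), 0.09 (5xFAD) and 0.16 (5xFAD-Dp16). Members below 0 numbered 17, 29, 15 and 1 of 74 in that order. Whether RNA quality or library preparation moves with this index was not tested.

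**Figure D4:**
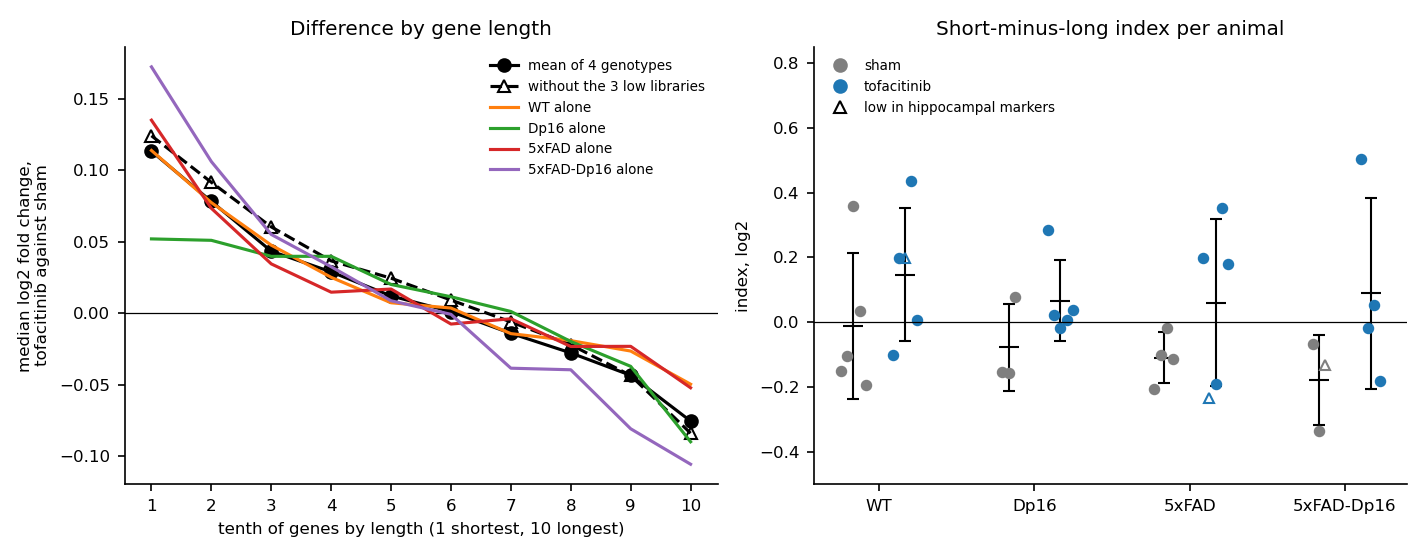
Left, the median log2 fold change of tofacitinib against sham (y axis) in deciles of the tested genes by length (x axis), over 4 genotypes in black, without the 3 low libraries as triangles and in each genotype in colour; right, the short-minus-long index (y axis, log2) of each animal by genotype, with mean ± SD. The black line runs from 0.11 to -0.08, and sham and tofacitinib animals overlap in the index in every genotype.

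Markers of the striatum and thalamus moved with single libraries. All 18 striatum genes were above 0 with a median of 0.62, and 6 had an unadjusted p under 0.05. Without the 3 low libraries the median was 0.09. The mean level of the striatum list was 5.59 log2 CPM in WT tofacitinib 3 and 6.40 in 5xFAD tofacitinib 2, against 2.66 to 4.41 in the other tofacitinib and 2.75 to 3.60 in the sham libraries. Thalamus and habenula genes had a median of 0.16, with 1.41 in 5xFAD and -0.77 in 5xFAD-Dp16 animals. The list median was 0.25 without the 3 low libraries, that of 5xFAD was 0.10, and that of 5xFAD-Dp16 changed sign to 0.68. Without 5xFAD tofacitinib 2 alone the list median was -0.12, and without 5xFAD-Dp16 sham 4 alone 0.52. 5xFAD-Dp16 tofacitinib 1, which is not among the 3 low libraries, was at 4.65 log2 CPM for the thalamus list and 4.41 for the striatum list. Animals 2, 3 and 4 of its group were at 2.885, 3.02 and 2.98 for the thalamus and at 2.78, 2.99 and 2.72 for the striatum list. Without the 3 low libraries the striatum median was still 0.63 in 5xFAD-Dp16 animals. Choroid plexus genes (18 tested) varied more widely, from -0.18 to 5.74 log2 CPM in sham and from 0.23 to 5.85 in tofacitinib libraries. Their median was -0.21, and 0.19 without the 3 low libraries, with -1.22 in 5xFAD and 2.12 in 5xFAD-Dp16 animals. The part of tissue composition in the genes of this comparison that these regions also express was not tested.

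**Figure D5:**
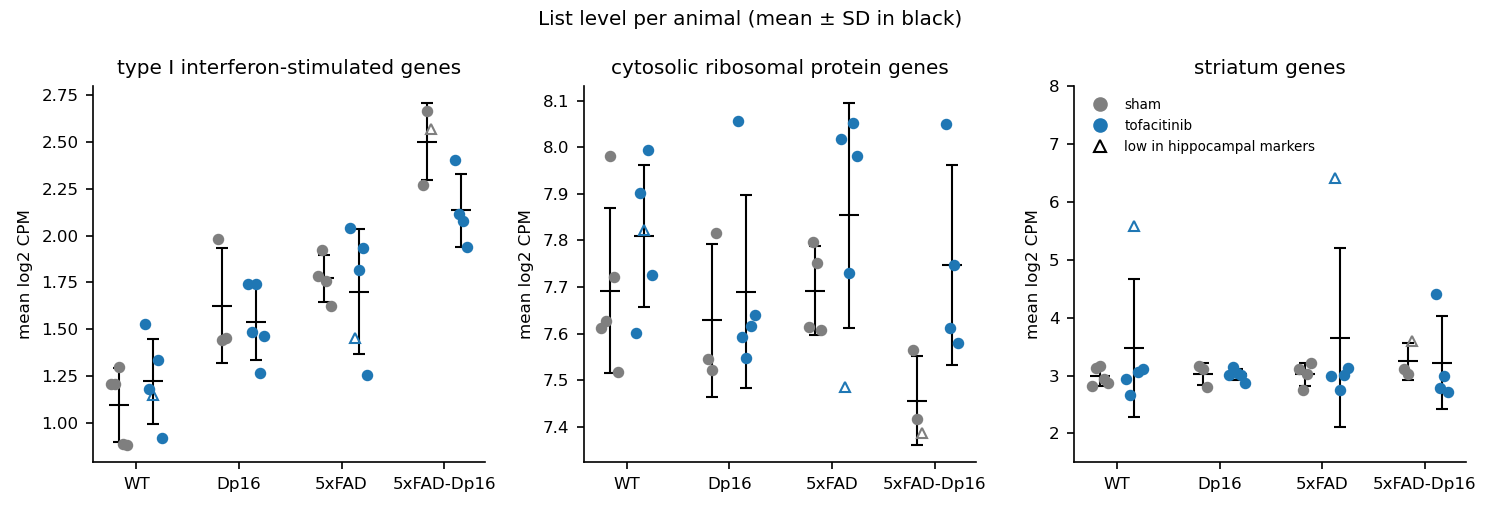
Mean log2 CPM (y axis) of 3 gene lists in each animal by genotype (x axis), sham in grey, tofacitinib in blue, mean ± SD in black and the 3 low libraries as open triangles. The sham and tofacitinib ranges overlap for the interferon list in every genotype and for the ribosomal list in all but 5xFAD-Dp16 animals, and the striatum list is highest in 5xFAD tofacitinib 2 at 6.40 and WT tofacitinib 3 at 5.59.

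The effect was next compared between genotypes and sexes. For a difference in the tofacitinib effect over the 4 genotypes 0 genes passed (0%, smallest adjusted p 0.542), and 563 (3.21%) had an unadjusted p under 0.05, while DESeq2 called 1, limma-voom 0 and edgeR without the filter 582. The smallest p belonged to Armc6, an armadillo repeat protein, with an effect of 0.46 in Dp16 and 0.30 in 5xFAD-Dp16 animals against 0.00 in WT and -0.29 in 5xFAD animals. It was at 16.6, 15.4 and 15.8 CPM in Dp16 sham and at 22.94, 22.96, 23.75, 20.96 and 18.79 CPM in Dp16 tofacitinib animals, which did not overlap, as was so for 3.93% of all genes in Dp16 animals. Next came mt-Atp8, a mitochondrially encoded ATP synthase subunit, at -1.25 in Dp16 and between -0.03 and 0.08 in the others, and Vps37c, a subunit of an endosomal sorting complex, at 0.39 in Dp16 and -0.28 in WT animals. In Dp16 animals mt-Atp8 was at 44.7, 20.8 and 42.7 CPM with sham and at 22.5, 13.3, 11.3, 14.0 and 15.0 CPM with tofacitinib, in overlapping ranges. Apart from Dp16 sham 1 and 3, all libraries of the series lay between 11.3 and 22.5 CPM. Over 14455 genes Spearman's correlation between the effects in 2 genotypes, which share no animals, ran from -0.15 (5xFAD with 5xFAD-Dp16) to 0.33 (WT with 5xFAD). Without the 3 low libraries, which lie in those genotypes, it ran from -0.03 (WT with Dp16) to 0.28 (5xFAD with 5xFAD-Dp16). With the length trend removed as well, the correlation ran from -0.11 to 0.19 for the same pairs of genotypes. Genes of 1 library are not independent, and the fit and its filter are shared.

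For a difference between males and females 0 genes passed (0%, smallest adjusted p 0.415), and 1852 (10.6%) had an unadjusted p under 0.05, while edgeR without the filter called 909. The smallest p belonged to Glra3, a glycine receptor subunit, with an effect of 1.05 in females and -0.90 in males. 5xFAD-Dp16 sham 4, the lone male of its group and 1 of the 3 low libraries, had the highest value of Glra3 at 28.7 CPM, and the other 33 libraries lay between 1.54 and 14.2 CPM. The clock output factor Dbp (0.58 in females, -0.13 in males) and Tnfaip8l1 (-0.58 and 0.37) followed. Dp16 sham also held 1 male and 5xFAD sham 1 female, so each fit of males or females alone below includes a group of 1 animal. With males alone in the fit 510 genes passed, 404 higher and 106 lower. Of these 508 were also tested in all animals, where 15 had an unadjusted p under 0.05. With males of the 3 genotypes other than 5xFAD-Dp16 and without the low libraries 0 passed. With females alone 3 passed.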

How the data were processed

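Hippocampal poly(A) RNA was sequenced as paired reads of 150 bases from strand-specific libraries, per the labels' protocols. The deposited table holds the authors' read counts per gene, not normalised. The deposited RPKM table, also the authors', was used for levels of the kinases: for 12463 genes it equalled the counts scaled by library sum and gene length. Tools named in the submitters' processing notes are HISAT2 2.1.0, HTSeq 0.6.1, SAMtools 1.5, FastQC 0.11.5 and bcl2fastq, with the build GRCm38. Strand setting and the treatment of reads that match several gene copies are not given in the sources used here. Overlapping genes and paralogs (Ifit, H2 and ribosomal protein genes with pseudogenes) are therefore uncertain.

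Counts were scaled by TMM, filtered by group (filterByExpr, 17518 of 55385 genes left) and fitted with edgeR 4.0.16 (robust quasi-likelihood, R 4.3.3) with 8 group means and sex, leaving 25 residual degrees of freedom. The main effect, the differences of the effect among the 4 genotypes and a treatment by sex term were tested two-sided, and p-values were adjusted over all genes tested. An interval is the 95% interval of that fit. Depth was 14.9 to 21.1 M counts per library. Libraries are separate samples in the labels, which number them within a group. Gene positions are from GENCODE M21 (GRCm38), which held 55144 of the gene identifiers (99.6%).

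Named genes were 28 check genes, the 5 smallest p in each direction with at least 1 CPM, since fewer than 5 passed, members of lists with passing genes (none), and the 3 smallest p of each interaction. A few genes that this rule takes are not reported. Other genes named as list members or as chosen after their values were seen fall outside that rule. The comparison, the 39 gene lists (848 of 850 entries in the files) and the check genes were chosen with earlier results of these data known. Lists are described by counts and medians, with no set test. Alternatives were DESeq2 size factors, no filter, no sex term, a replicate block, 2 surrogate variables (sva 3.50.0), DESeq2 1.42.0, limma-voom 3.58.1 with quality weights, an additive model, each sex alone, fits without the 3 low libraries and without each library. Removal of the length trend and the fits by sex without low libraries were added after seeing the data.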

Additional observations from a re-analysis of the deposited data

Results flagged for a closer look

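In groups of 4 or 5 animals, 1 animal was taken as far from the rest at a gap that chance alone gives in about 1 in 20. Of 264 tested gene and group combinations (44 genes), 14 had such an animal, which is close to that share. Of these 4 lie in libraries low in hippocampal markers: Cish at 14.2 CPM and App at 2150 CPM in 5xFAD tofacitinib 2 (others 2.9 to 4.34 and 1350 to 1560), and Gfap at 133 CPM and Cst7 at 0.823 CPM in WT tofacitinib 3 (others 454 to 557 and 0.0501 to 0.247).

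Among JAK-STAT and interferon genes, Stat2 was at 22.9 CPM in WT tofacitinib 1 (others 13.3 to 15.2) and at 11.9 CPM in Dp16 tofacitinib 5 (16 to 17), and Socs3 at 2.05 CPM in Dp16 tofacitinib 3 (1.55 to 1.6). Ifit1 was at 4.13 CPM in 5xFAD sham 1 (2.77 to 3) and H2-K1 at 37.4 CPM in WT tofacitinib 2 (26.6 to 28.9). Cst7 was at 0.383 CPM in WT sham 4, with the others at 0 to 0.0626.

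Of the genes with the smallest p, Lrrn1 was at 78.5 CPM in Dp16 tofacitinib 1 (91.1 to 94.7), Ctns at 11 CPM in WT sham 3 (8.06 to 8.82), Vps37c at 24.2 CPM in 5xFAD sham 2 (21.6 to 22.1) and Dbp at 81.6 CPM in 5xFAD-Dp16 tofacitinib 2 (51.3 to 54).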

How the results depend on the processing

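The count of genes past the threshold for the mean effect was 0 with DESeq2 size factors, without a sex term, with 2 surrogate variables, with limma-voom, in the additive model, without the 3 low libraries, with the length trend removed (also without the 3 libraries) and in males of 3 genotypes without low libraries. It was 91 with no filter on low counts, 1 with DESeq2, 510 in males alone, 3 in females alone and 6 in females without the low library. The genotype interaction counted 582 genes with no filter and 1 with DESeq2, and the sex interaction 909 with no filter. Of the 91 genes 90 passed the filter, and 13 of them are among the 18 striatum genes. Leaving out each of the 34 libraries in turn gave 0 to 0 genes for each of the 3 counts. Genes with an unadjusted p under 0.05 then numbered from 930 without 5xFAD-Dp16 tofacitinib 1 to 1945 without 5xFAD-Dp16 sham 4.

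Deviations from the fit in sham and tofacitinib libraries of equal replicate number had correlations of -0.355 to 0.372 (14 pairs, 2 over 0.1). No correlations of unequal numbers were set beside them, so whether the numbers mark pairs was not tested. With the replicate number as a block 0 genes passed for the mean effect and for both interactions, and 1511 had an unadjusted p under 0.05 in place of 1354.

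Over all alternatives, 3 values of named genes changed sign from a main value with an unadjusted p under 0.05: Tyk2 was at 0.0067 in males of 3 genotypes, and Dbp at -0.1589 in males alone and -0.1108 in males of 3 genotypes. Rsrp1 passed with no filter (0.38, adjusted p = 2e-06) and Glra3 in males alone (-1.04, adjusted p = 0.0132). The cause was not tested. With 15 and 19 animals the interval lay within 1.5-fold for 75.8% of genes, and low genes such as Cst7, Clec7a, Socs1 and Il2rb are bounded less well.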
